A study of Homo sapiens with 6 samples.

Results

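The desmosome is the junction that fastens the keratin filaments of one epithelial cell to those of its neighbour. Transcripts for 10 of its components were followed in Cal33, a line of oral squamous carcinoma cells of human origin: the desmogleins DSG2 and DSG3, the desmocollins DSC2 and DSC3, plakoglobin (JUP), the plakophilins PKP1, PKP2 and PKP3, desmoplakin (DSP) and PERP. They were taken by gene symbol from the deposited table, each matched 1 entry, and they make up 10 of its 14136 gene entries. The 3 CES2 libraries came from cells stably carrying a lentiviral pSin-EF2 construct for FLAG-tagged carboxylesterase 2, an esterase of the endoplasmic reticulum. The 3 Vector libraries came from cells carrying the empty pSin-EF2 vector. Both groups were infected with lentivirus packaged in 293FT, a line derived from embryonic kidney. Both were kept in 10% serum and under 0.5 ug/ml puromycin. The labels do not say whether the stable lines were clones or mixed populations, nor whether libraries within a group stem from separate infections or cultures. The p-values thus measure only the spread between these libraries, which may be technical.

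In a desmosome the outer parts of the cadherins, the desmogleins and desmocollins, bind across the gap between cells in the presence of calcium. Inside the cell the armadillo proteins plakoglobin and the plakophilins gather at the cadherin tails, and desmoplakin ties the whole plaque to keratin. DSG2 and DSC2 are the cadherins expressed broadly across epithelia, whereas DSG3 and DSC3 are typical of the basal and lower layers of stratified epithelium.

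Abundance was given as TPM, which is scaled for transcript length and to the same total in each library. The table lists 1 transcript per gene, and whether a value was scaled to that transcript or to the whole gene is not given in the sources used here, so every order of levels between genes below is uncertain to that extent. A comparison of 1 gene between libraries uses the same length throughout. TPM keeps no sequencing depth, which is therefore unknown, so counting error is not shown. In bulk RNA, fewer cells with a transcript and less of it per cell cannot be told apart. The CES2 gene itself, read from construct and endogenous locus together, was at 2664, 1929 and 2294 TPM in CES2 libraries, against 45.6, 41.9 and 44.9 TPM in Vector libraries (log2 fold change 5.66, limma adjusted p = 7.38e-06). Beyond the groups, CES2 2 and Vector 1 shared a deviation from their group means. Their scores on the first component of the residuals were 0.49 and 0.52, those of CES2 1 and CES2 3 were 0.083 and -0.57, and those of Vector 2 and Vector 3 were -0.39 and -0.13. For the desmosome genes, values without both of these libraries are given below where the sign turns or the value moves by over 1.5 times. For the other genes named they are not given, so how far those estimates depend on these libraries is not shown.

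The squamous label was compared with marker genes. KRT5, the basal type II keratin, was at 1031 to 2380 TPM in CES2 libraries and at 1560 to 2597 TPM in Vector libraries. TP63, the transcription factor of squamous epithelium, was at 54.3 to 117 TPM in CES2 libraries and at 81.1 to 103 TPM in Vector libraries. KRT14, the usual basal partner of KRT5, had low values, at 1.14 to 2.97 TPM in CES2 libraries and 1.21 to 2.64 TPM in Vector libraries. Its reads may have been split in counting with KRT16 and KRT17, near-identical to it in parts, so this level is uncertain. Some genes typical of simple epithelium were also abundant. Their list (5 of 5) summed to 2238 to 3183 TPM in CES2 libraries and 2237 to 3452 TPM in Vector libraries. Most of that sum was KRT8 and KRT18, the keratin pair of simple epithelium, with EPCAM at 314 to 457 TPM over all 6 libraries. The other members of the list were low, KRT7 at 18.5 to 29.8 TPM and KRT19 at 5.07 to 14.1 TPM over all 6 libraries. Lists for cells outside epithelium had low sums. The fibroblast list (1 of 6 genes in the table, COL1A1) summed to 3.89 to 10.5 TPM in CES2 libraries and 4.49 to 9.36 TPM in Vector libraries. The leukocyte list (2 of 4) summed to 5.53 to 8.53 TPM in CES2 libraries and 6.12 to 11.6 TPM in Vector libraries. Most of that sum was CD68, with LYZ at 0 to 0.593 TPM, while PTPRC and CD3E had no entry. The melanocyte list (2 of 3) summed to 2.77 to 3.28 TPM in CES2 libraries and 2.5 to 4.88 TPM in Vector libraries. The mesenchymal list (2 of 4) summed to 1.1 to 2.73 TPM in CES2 libraries and 1.04 to 3.33 TPM in Vector libraries. That sum covers CDH2 and FN1 alone, since VIM and ZEB1 had no entry, and why they had none is not known. The endothelial list (3 of 3) summed to 11.2 to 20.5 TPM in CES2 libraries and 10.2 to 25.8 TPM in Vector libraries, most of it CDH5, with PECAM1 at 0.128 to 0.549 TPM. The leukocyte gene LYZ was read as 0 in Vector 1 and the mesenchymal cadherin CDH2 as 0 in CES2 2. Blanks were also read as 0, so whether these were blanks or zeros is not shown. The part of these markers in the desmosome values was not tested.

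The 4 cadherin genes lie together on chromosome 18 within 559 kb in GRCh38. DSC3 (30990008 to 31042741) and DSC2 (31058840 to 31102415) are on the minus strand and 16.1 kb apart. DSG3 (31447795 to 31478702) and DSG2 (31498043 to 31549008) follow on the plus strand after 345 kb, 19.3 kb apart from each other. DSG2 and DSG3 are thus close neighbours read in the same direction whose transcript levels were far apart in every library, and the desmocollin pair likewise differed. For this reason a stretch upstream of a start of each of the 4 genes is shown, from RefSeq (GRCh38.p14). Each holds 100 bases that no GENCODE release 29 exon covers, written 5′ to 3′ in the direction of the gene. The stretch of DSC2 lies inside the gene as given above, before an inner start, and is not the flank of its outer end. The window at that outer end left only 14 bases free of exons to show. Capitals mark matches to any of 5 short motifs looked for on both strands.
DSG2, chr18:31497943-31498042, plus strand: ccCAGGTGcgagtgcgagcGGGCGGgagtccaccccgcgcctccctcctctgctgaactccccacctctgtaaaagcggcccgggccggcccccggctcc
DSG3, chr18:31447641-31447740, plus strand: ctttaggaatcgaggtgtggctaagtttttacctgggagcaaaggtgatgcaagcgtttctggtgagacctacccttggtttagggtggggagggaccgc
DSC3, chr18:31042816-31042915, minus strand: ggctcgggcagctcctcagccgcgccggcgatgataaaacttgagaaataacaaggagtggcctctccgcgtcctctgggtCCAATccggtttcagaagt
DSC2, chr18:31101261-31101360, minus strand: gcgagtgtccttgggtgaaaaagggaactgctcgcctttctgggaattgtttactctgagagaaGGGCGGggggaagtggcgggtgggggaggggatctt

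The motifs were the TATA box (TATAAA), the CCAAT box (CCAAT), the GC box (GGGCGG), the AP-1 site (TGANTCA) and an E-box (CAGGTG), searched over the whole RefSeq window of 250 bases before to 50 bases after each start. RefSeq windows were found for 8 of the 10 genes; PKP2 and PKP3 had none in the table used, while DSC2 and JUP had 2 each. The DSG2 window had a GC content of 76.7% and held 2 GC boxes and 2 E-boxes, whereas the DSG3 window had a GC content of 44.0% and none of the 5 motifs. The GC content of the DSG2 window exceeded that of 93.1% of all 35116 windows, and that of DSG3 exceeded 18.8%. Among the desmocollins the contrast was not the same. The window of DSC3, the gene with the higher TPM, had 63.3% GC and held a CCAAT box alone. Of the DSC2 windows, that of the stretch shown, at the inner start, had 65.7% GC and 2 GC boxes. The other, at the outer end of DSC2, had 60.7% GC, 1 GC box and 1 E-box. GC boxes stood in windows of 6 of the 8 genes (DSC2, DSG2, DSP, JUP, PERP and PKP1) and in 45.0% of all windows. The AP-1 site stood in the PERP window alone among the 8 genes and in 7.71% of all windows. The E-box stood in windows of 4 genes (DSC2, DSG2, DSP and JUP) and in 20.6% of all windows. The CCAAT box stood in windows of 2 genes (DSC3 and JUP) and in 34.6% of all, and the TATA box in 0 of the 8 and in 11.5% of all. The shares over all windows count single windows, whereas DSC2 and JUP were counted if either of their windows matched. Among the 10 single windows of these genes, the GC box stood in 7 and the E-box in 4. The CCAAT box stood in 2 of them, the AP-1 site in 1 and the TATA box in 0. All these are descriptions of letters in a window and show no binding. Whether the GC content or motifs of a window bear on the level of its gene was not tested.

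**Figure D1:**
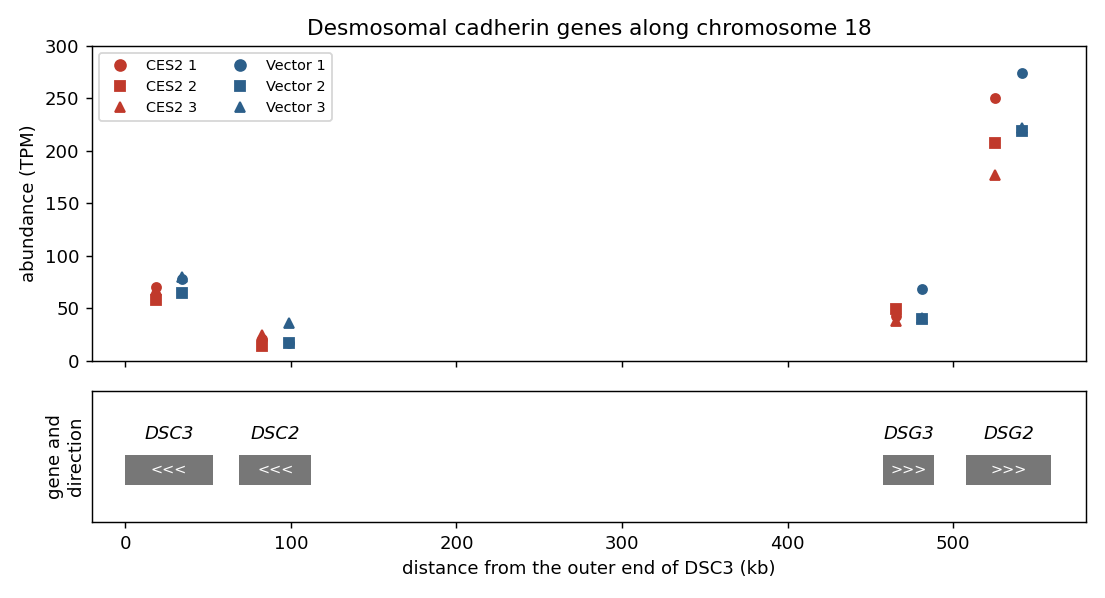
Abundance (TPM, upper panel) of the 4 desmosomal cadherin genes in each library, plotted at the position of the gene in kb from the outer end of DSC3 (lower panel; chevrons give the direction of transcription). Red points are CES2 libraries and blue points Vector libraries, with the circle, square and triangle for replicates 1, 2 and 3. DSG2 stands above its neighbour DSG3 in all 6 libraries.

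None of the 10 desmosome transcripts passed the test between CES2 and Vector cells. The comparison asks whether raising carboxylesterase 2 altered the transcripts of this junction. All 10 were tested among 12210 genes by limma on log2(TPM + 1), and 0 passed at a Benjamini-Hochberg adjusted p of 0.05, where 0.00819% of all genes did (1 gene, CES2 itself). At an unadjusted p under 0.05 there were also 0 of the 10, against 1.09% of all genes. The adjusted p was 1.00 for each of the 10. The median log2 fold change of the 10 was -0.13, beside -0.057 over all tested genes. Without both Vector 1 and CES2 2 it was -0.053, beside -0.055 over all tested genes. With all 6 libraries in the fit, 7 of the 10 estimates were below 0, beside 63.7% of all genes. The 95% intervals bound what these libraries leave possible: each of the 10 lay within a 2-fold difference in either direction, as did those of 80.5% of all genes. The widest, that of DSC2, ran from 0.519 to 1.56 times the Vector level. These intervals are not adjusted for the number of genes.

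Desmogleins were the more abundant cadherins by summed TPM. DSG2, the broadly expressed desmoglein, was at 250, 207 and 177 TPM in CES2 libraries, against 274, 219 and 222 TPM in Vector libraries. The groups overlapped, with the highest value in Vector 1 and the lowest in CES2 3. The means were 211 ± 36.9 TPM in CES2 and 238 ± 30.8 TPM in Vector (SD, n = 3 each), giving a log2 fold change of -0.18 (standard error 0.20), or -0.067 without both Vector 1 and CES2 2 and 0.037 with library weights. DSG3, the basal desmoglein known as the target antigen of pemphigus vulgaris, was at 42.5, 48.8 and 38.1 TPM in CES2 libraries, against 68.5, 39.3 and 40.9 TPM in Vector libraries. Only Vector 1 stood above the rest, and the other Vector libraries lay inside the CES2 range. The log2 fold change of DSG3 was -0.16 (standard error 0.25), with 0.096 without Vector 1 and 0.0051 without both Vector 1 and CES2 2.

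DSG2 made up most of the desmoglein RNA in each library. Its share of the summed DSG2 and DSG3 TPM was 82.9 ± 2.33% in CES2 and 83.1 ± 2.68% in Vector (SD, n = 3 each), with overlapping groups. DSG2 exceeded DSG3 by 4.24 to 5.88 times in CES2 libraries and by 4.0 to 5.57 times in Vector libraries. Such a ratio within a library does not depend on how that library was scaled. DSG1, the desmoglein of the upper layers, and DSG4 were looked for by symbol and had no gene entry, so the shares do not include them.

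In the desmocollins the order was the other way round, with the basal form ahead, although the listed transcripts differ in length, at 6939 bases for DSC3 and 12325 bases for DSC2. DSC3, the basal desmocollin, was at 70.3, 57.3 and 67.1 TPM in CES2 libraries, against 77.9, 64.7 and 79.9 TPM in Vector libraries. The groups overlapped through Vector 2, and the log2 fold change was -0.19 (standard error 0.18), or -0.065 without both Vector 1 and CES2 2. DSC2, the broadly expressed desmocollin, was at 20.7, 14.1 and 24.6 TPM in CES2 libraries, against 16.6, 16.7 and 36.1 TPM in Vector libraries. Vector 3 stood apart as the highest, and the other Vector libraries fell inside the CES2 range. DSC2 had the widest spread of the 10 genes, with a residual SD of 0.52 on the log2 scale, and its log2 fold change of -0.15 (standard error 0.35) was 0.21 without Vector 3 and 0.062 without CES2 2. GENCODE places an antisense gene, DSCAS, over DSC2, and another, DSG2-AS1, over DSG2. Libraries were strand-specific per the labels, but use of strand in the counting is not given in the sources used here, so antisense reads in these 2 values cannot be told apart.

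DSC3 held 76.9 ± 3.56% of the summed desmocollin TPM in CES2 and 77.0 ± 7.14% in Vector (SD, n = 3 each). The lowest share, 68.9%, was in Vector 3, where DSC2 was highest. Desmogleins exceeded desmocollins in summed TPM by 3.05 ± 0.637 times in CES2 and by 3.02 ± 0.689 times in Vector (SD, n = 3 each). DSC1, the desmocollin of the upper layers, was at 0.0742 to 0.338 TPM in CES2 libraries and 0.0763 to 0.191 TPM in Vector libraries, below the filter for testing. The cadherin set in these cells was thus led by DSG2 and DSC3 in both groups.

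**Figure D2:**
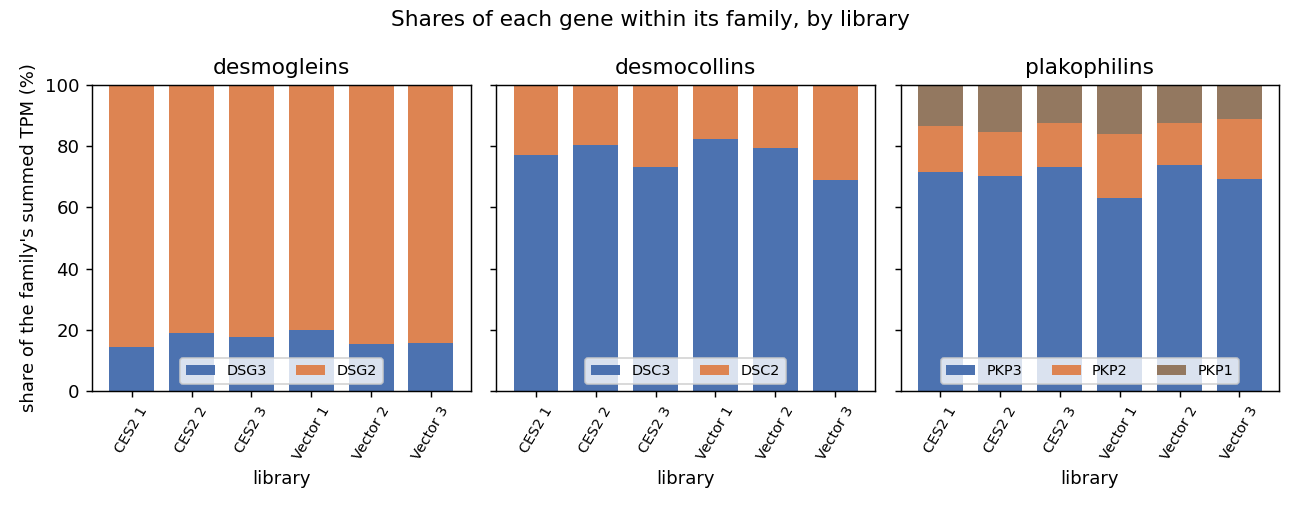
Share of each gene in the summed TPM of the desmogleins, the desmocollins and the plakophilins (percent, vertical axis) for each of the 6 libraries (horizontal axis, CES2 left of Vector). DSG2, DSC3 and PKP3 hold the largest share of their family in all 6 libraries.

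Among the armadillo proteins plakoglobin was the most abundant desmosome transcript of all. JUP, which also binds classical cadherins at adherens junctions (chromosome 17, 41754604 to 41785155, minus strand), was at 521, 673 and 490 TPM in CES2 libraries, against 578, 407 and 663 TPM in Vector libraries. High and low libraries were present in both groups, with CES2 2 the highest and Vector 2 the lowest. The means were 561 ± 97.7 TPM in CES2 and 550 ± 130 TPM in Vector (SD, n = 3 each), and the log2 fold change of 0.045 (standard error 0.23) was -0.16 without Vector 2, -0.092 without CES2 2, -0.041 without both CES2 2 and Vector 1, and -0.10 with library weights.

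PKP2, the plakophilin shared by simple epithelia, basal cells and heart muscle (chromosome 12, 32790745 to 32896840, minus strand), was the member whose groups did not overlap. It was at 64.8, 55.2 and 75.5 TPM in CES2 libraries, against 76.5, 79.1 and 90.3 TPM in Vector libraries. The gap between CES2 3 and Vector 1 was small beside the range within either group. Non-overlap with lower values in CES2 held for 2.63% of all tested genes, and here for 1 of the 10. The means were 65.2 ± 10.2 TPM in CES2 and 82.0 ± 7.32 TPM in Vector (SD, n = 3 each), with a log2 fold change of -0.33 (standard error 0.19) and an unadjusted limma p of 0.115. By an exact permutation test on the log2 scale, two-sided, p was 0.1, which is the lowest possible with 3 libraries a group. The estimate was below 0 under all 16 alternatives, between -0.44 without CES2 3 and -0.22 without CES2 2. With library weights its unadjusted limma p was 0.0405 and its adjusted p 0.945. In that fit 621 of all 12210 genes had an unadjusted p under 0.05. GENCODE places a sense intronic gene and a processed pseudogene inside PKP2, and reads shared with them cannot be told apart.

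PKP1, the plakophilin of stratified epithelium (chromosome 1, 201283452 to 201332993, plus strand), was at 58.5, 60.2 and 66.8 TPM in CES2 libraries, against 58.2, 71.9 and 51.2 TPM in Vector libraries. The CES2 values lay within the Vector range, and the log2 fold change was 0.044 (standard error 0.19). It was -0.067 without Vector 3 and -0.012 without CES2 3. PKP3, found in most epithelia (chromosome 11, 392614 to 397198, plus strand), was at 308, 273 and 390 TPM in CES2 libraries, against 230, 427 and 320 TPM in Vector libraries. Again the CES2 values lay inside the Vector range, with both ends held by Vector libraries. Its log2 fold change of 0.022 (standard error 0.26) was 0.24 without Vector 2 and -0.21 without Vector 1, and was also below 0 without CES2 3, without both Vector 1 and CES2 2, after quantile normalization and with library weights.

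PKP3 led the plakophilins in TPM, at 71.7 ± 1.49% of their sum in CES2 and 68.8 ± 5.43% in Vector (SD, n = 3 each). PKP2 held 14.5 ± 0.484% in CES2 and 18.1 ± 3.86% in Vector, and PKP1 held 13.9 ± 1.5% in CES2 and 13.2 ± 2.52% in Vector. The groups overlapped in all 3 shares, that of PKP2 because Vector 2 stood at 13.7%. For PKP3 the limit on lengths is plain to see: the transcript listed beside it is a short form of 756 bases in 4 exons ending at 397198, while GENCODE gives 11 transcripts of the gene reaching to 404908. The related PKP4, which also joins adherens junctions, was at 68.0 ± 9.8 TPM in CES2 and 74.2 ± 6.96 TPM in Vector (SD, n = 3 each; log2 fold change -0.13).

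DSP, the plakin that joins the plaque to keratin filaments (chromosome 6, 7541575 to 7586717, plus strand), was at 165, 146 and 181 TPM in CES2 libraries, against 172, 156 and 200 TPM in Vector libraries. The groups overlapped over most of their range, and the log2 fold change was -0.099 (standard error 0.18), with -0.033 without both Vector 1 and CES2 2 and -0.0024 without Vector 3. PERP, a membrane protein with 4 spans that is a target of p53 and p63 and is needed for desmosomes in mouse stratified epithelium (chromosome 6, 138088505 to 138107511, minus strand), was at 322, 299 and 355 TPM in CES2 libraries. In Vector libraries PERP was at 337, 329 and 345 TPM, all inside the CES2 range. Its log2 fold change was -0.054 (standard error 0.16). It was slightly above 0 after median rescaling, at 0.0076, without CES2 2, at 0.0052, and without both CES2 2 and Vector 1, at 0.0048. JUP exceeded DSP by 3.49 ± 0.986 times in CES2 and by 3.1 ± 0.416 times in Vector (SD, n = 3 each).

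**Figure D3:**
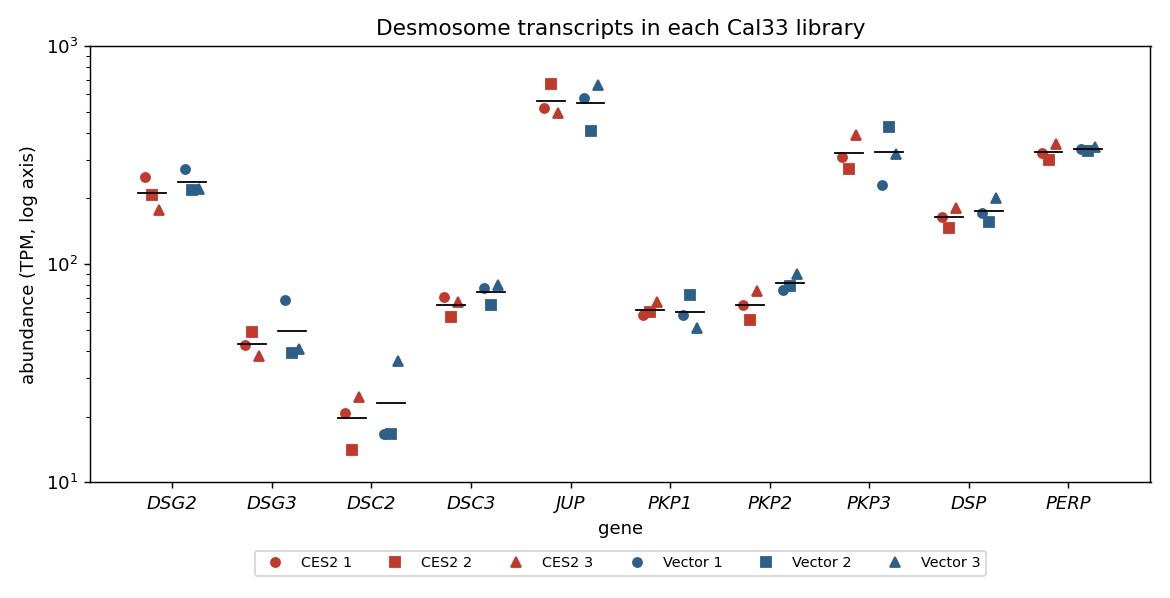
Abundance in TPM (vertical log axis) of the 10 desmosome genes (horizontal axis) in each library, CES2 in red left of Vector in blue, with a marker shape for each replicate and a black bar for the mean of the 3 libraries. PKP2 is the gene whose red and blue points do not overlap.

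**Figure D4:**
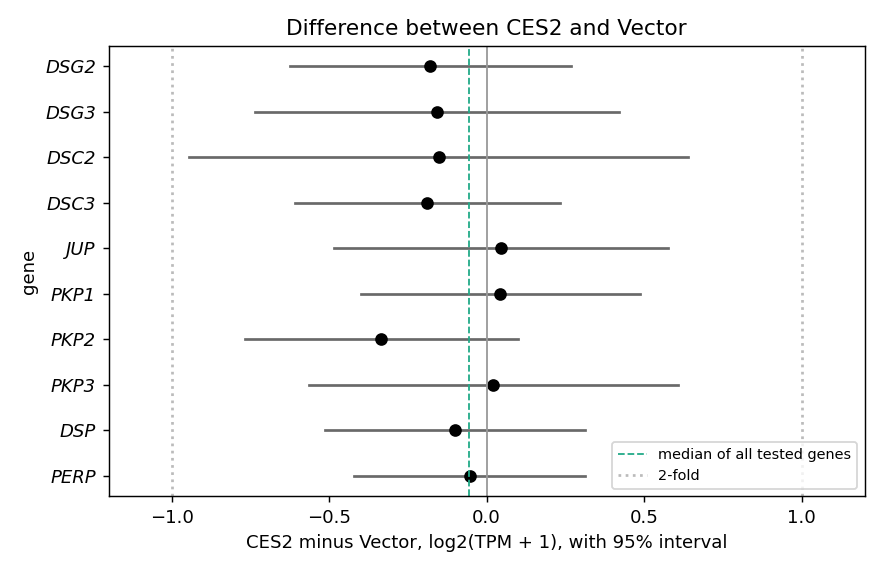
Difference between CES2 and Vector on the log2(TPM + 1) scale for each gene, with its 95% interval from limma. The dashed line marks the median of all tested genes at -0.057 and the dotted lines a 2-fold difference, which no interval reaches.

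By mean level over the 6 libraries, with the limit on lengths given above, the order was JUP at 555 TPM, PERP at 331, PKP3 at 325, DSG2 at 225, DSP at 170, PKP2 at 73.6, DSC3 at 69.5, PKP1 at 61.1, DSG3 at 46.4 and DSC2 at 21.5 TPM. The ranges of neighbours in that order did not overlap for JUP above PERP, DSP above PKP2 and DSG3 above DSC2, so 3 steps stood beyond the spread of the libraries. All other neighbouring pairs overlapped; PKP2 and DSC3, for example, were each the higher in 3 of the 6 libraries. Of the 10, 9 lay above the median tested gene, at 28.1 TPM, and DSC2 below it. The 10 together summed to 1840 ± 22.4 TPM in CES2 and 1916 ± 123 TPM in Vector (SD, n = 3 each), with overlapping groups.

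The members differed in how steady they were between libraries of one group. PERP varied least, with a residual SD of 0.092 on the log2 scale, and 1.93% of all tested genes varied less. DSC3, at 0.16, and DSP, at 0.17, were also steady, whereas DSC2, at 0.52, PKP3, at 0.37, and DSG3, at 0.33, varied more than the median tested gene at 0.31. The other 7 lay below that median. CES2 2 held the lowest value of 5 members (DSC2, DSC3, DSP, PKP2 and PERP) and at the same time the highest of JUP. Vector 3 held the highest value of 4 (DSC2, DSC3, DSP and PKP2) and the lowest of PKP1. Vector 2 held the lowest JUP and the highest PKP1 and PKP3. In any library between 2 and 7 of the 10 lay above their own mean. Averaged over the 10, values relative to each gene's mean were -0.029, -0.15 and 0.016 log2 units in CES2 libraries, against 0.044, -0.037 and 0.15 in Vector libraries.

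**Figure D5:**
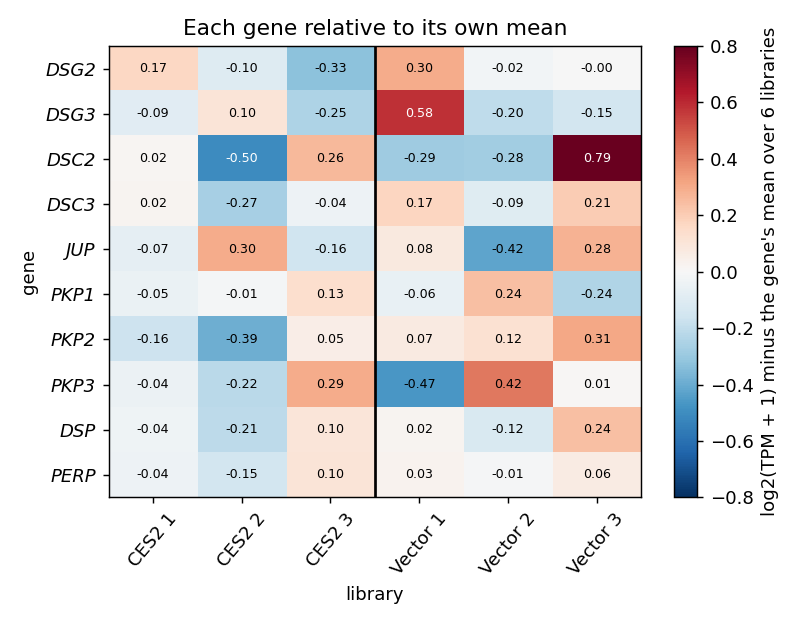
Level of each desmosome gene (rows) in each library (columns, CES2 left of Vector) as log2(TPM + 1) minus the mean of the gene over the 6 libraries; red is above and blue below that mean. DSC2 in Vector 3 at 0.79 and DSG3 in Vector 1 at 0.58 are the highest cells, and PERP stays between -0.15 and 0.10.

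The 3 tested genes whose centred values came nearest to that average, by root mean square difference over the 6 libraries, were ARPC3 at 0.027, HSPB11 at 0.031 and CALM2 at 0.031 log2 units, out of 12183 candidates. ARPC3, a subunit of the actin-nucleating Arp2/3 complex, was at 455, 434 and 479 TPM in CES2 libraries and 508, 466 and 524 TPM in Vector libraries. With an average that varied by an SD of only 0.098 log2 units, nearness to it describes genes that vary little.

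Genes that surround the desmosome were read from the same limma test. In the plakin, adherens junction, hemidesmosome, turnover and epithelial transcription factor lists 0 passed in either direction, and 0 had an unadjusted p under 0.05. Among 6 other plakins 6 were tested, with a median log2 fold change of -0.052. PPL, periplakin of the cornified envelope, was at 176 ± 17.4 TPM in CES2 and 205 ± 19.7 TPM in Vector (SD, n = 3 each; log2 fold change -0.22), EVPL had -0.15 and DST -0.085. Of 8 adherens junction genes, all tested, the median was -0.077. CTNND1, p120-catenin, had -0.21, VCL -0.14 and NECTIN1 0.14. Of 6 hemidesmosome genes, all tested, the median was -0.12, with COL17A1 at -0.26, ITGB4 at -0.17 and ITGA6 at -0.15.

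Genes tied to the turnover of desmosomes had a median of -0.21 over 8 tested, of which 7 were below 0, beside 63.7% of all genes, the lowest median of the lists with more than 1 tested gene. FLOT2, a raft protein that associates with desmosomal proteins in keratinocytes, was at 139, 165 and 153 TPM in CES2 libraries, against 201, 197 and 168 TPM in Vector libraries. The groups did not overlap, as in 2.63% of all genes with lower values in CES2, though CES2 2 and Vector 3 were close, and the log2 fold change was -0.31 (standard error 0.17), with an unadjusted limma p of 0.107. FLOT1 had a log2 fold change of -0.31 and EGFR, whose signalling loosens desmosomes, one of -0.23, both with overlapping groups. Of 12 transcription factors of epithelial identity, all tested, the median was -0.08, with ZNF750 at -0.32, GRHL3 at -0.27 and KLF4 at -0.23. TP63, which acts upstream of PERP, averaged 89.6 ± 32.1 TPM in CES2 and 90.1 ± 11.5 TPM in Vector (SD, n = 3 each; log2 fold change -0.07).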

How the data were processed

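RNA of 6 Cal33 libraries was measured, 3 CES2 and 3 Vector by their titles. The authors deposited TPM for 14136 gene entries, with 1 listed transcript each; the unit was inferred from column sums of 999804 to 999893. StringTie 1.3.3, HISAT2 2.1.0, edgeR 3.0.8 and the builds GRCh38 and hg38 appear in the submitters' processing notes. What each was used for, the annotation and the filters were not given in the sources used here. Blanks (607 entries) were read as 0, and 20 symbols turned into dates were restored from gene identifiers.

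The 12210 genes that reached 1 TPM in 3 or more libraries were fitted as log2(TPM + 1) with limma 3.58.1 in R 4.3.3 (intensity trend, group as the only term, two-sided, Benjamini-Hochberg threshold 0.05), after a trial on simulated data. Fold changes are CES2 over Vector on that scale, so changes of weakly expressed genes are understated. Python 3.11.15, pandas 2.3.3 and matplotlib 3.10.9 served the rest. Members and lists were chosen with earlier results of these data known. All members were named, with up to 3 genes of smallest p from each surrounding or marker list and the 3 genes nearest in pattern. TP63, KRT14, KRT15, KRT16, KRT19, KRT6A, KRT6B, KRT8, PECAM1, LYZ, CDH2 and DSC1 are named outside that rule. Alternatives covered filters, pseudocounts of 0.1 and 0.01, scaling, variance model, a block and left-out libraries.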

Additional observations from a re-analysis of the deposited data

How the results depend on the processing

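The number of members past the threshold was 0 under all 16 alternatives, with a lowest adjusted p of 0.945. At an unadjusted p under 0.05 at most 1 member was found, PKP2 with library weights. In that fit 621 of all 12210 genes had an unadjusted p under 0.05, against 133 in the main fit. It leaned on CES2 1, with a weight of 6.86 against 0.513 to 1.12 for the other libraries. The median log2 fold change of the members was -0.21 to -0.051 when each library was left out in turn. DSG2, DSG3, DSC2, JUP, PKP1, PKP3 and PERP took the other sign under at least 1 alternative, and DSC3, DSP and PKP2 under none, although DSP came to -0.0024 without Vector 3. When each library was left out in turn the log2 fold change was -0.31 to -0.058 for DSG2, -0.28 to -0.10 for DSC3, -0.18 to -0.0024 for DSP, -0.44 to -0.22 for PKP2, -0.30 to 0.096 for DSG3, -0.33 to 0.21 for DSC2, -0.16 to 0.20 for JUP, -0.067 to 0.17 for PKP1, -0.21 to 0.24 for PKP3 and -0.12 to 0.0052 for PERP. With library weights it was 0.037 for DSG2, -0.10 for JUP and -0.015 for PKP3; after median rescaling it was 0.0076 for PERP, and after quantile normalization -0.011 for PKP3. Without Vector 1 and CES2 2 together, a choice made after seeing the data, the median of the members was -0.053 and that of all genes -0.055, and the log2 fold change was -0.067 for DSG2, -0.065 for DSC3, -0.033 for DSP, 0.0051 for DSG3, -0.041 for JUP, -0.092 for PKP3 and 0.0048 for PERP. Over all genes, 1 to 2 passed when each library was left out (2 without CES2 3), 2 without Vector 1 and CES2 2 together and 4 with library weights; the cause was not tested. With the replicate number as a block, 1 gene and 0 members passed. Deviations of same-numbered libraries correlated across genes at 0.15, -0.52 and 0.37. CES2 2 and CES2 3 each correlated best with a library of another number, and CES2 1 with Vector 1. Whether libraries of one number were handled together cannot be told from these values. The CES2 minus Vector difference in share was -0.81 to 1.71 percentage points for DSG3, -4.09 to 2.7 for DSC3 and 0.058 to 5.46 for PKP3 when each library was left out. Depth is unknown, and count models cannot be used on TPM.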

Other observations

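The keratins to which desmosomes attach included KRT5, KRT8, KRT13, KRT15, KRT17 and KRT18 at high levels, but hardly any KRT14, the usual partner of KRT5 in basal keratinocytes. KRT15, another basal type I keratin, was at 1620, 2020 and 1371 TPM in CES2 libraries, against 2064, 1585 and 1950 TPM in Vector libraries, with overlapping groups. KRT14 averaged 1.98 TPM in both groups. Reads of KRT14, KRT16 and KRT17, which are near-identical in parts, and of KRT6A and KRT6B may have been split in counting, so single values of these are uncertain. Of 10 keratins 9 were tested by limma, 0 passed and 1, KRT13, had an unadjusted p under 0.05, beside 1.09% of all genes; the median log2 fold change was -0.047. KRT13, a keratin of the upper layers of oral mucosa, was at 448, 959 and 1246 TPM in CES2 libraries, against 1795, 1261 and 1732 TPM in Vector libraries. Its groups did not overlap, as in 2.63% of all genes with lower values in CES2, though CES2 3 and Vector 2 were nearly equal, and its log2 fold change was -0.96 (standard error 0.36) with an unadjusted limma p of 0.0284 (adjusted p = 1.00). KRT17 had a log2 fold change of 0.31 and KRT5 of -0.38, both with overlapping groups.

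Of 5 transcription factors that repress epithelial junction genes 3 were tested by limma, and 0 passed or had an unadjusted p under 0.05. TWIST1 was at 14.6, 17.5 and 6.47 TPM in CES2 libraries, against 11.0, 5.92 and 7.85 TPM in Vector libraries, a log2 fold change of 0.52 with overlapping groups. SNAI2 was at 16.4 ± 5.09 TPM in CES2 and 16.2 ± 2.70 TPM in Vector, and SNAI1 at 2.29 ± 0.158 TPM in CES2 and 2.22 ± 0.896 TPM in Vector (SD, n = 3 each).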
